A study of Mus musculus with 4 samples.

Results

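Stromal-like cells were the barcodes that carried collagen and matrix transcripts in a culture of mouse blood progenitors. In both mRNA libraries they were chosen by their counts: at least 5 unique molecular identifiers (UMIs, each standing for 1 captured transcript) of at least 4 of the 6 genes Col1a1, Col1a2, Col3a1, Sparc, Bgn and Cxcl12. A barcode also needed at least 500 genes and under 10% mitochondrial UMIs, and it entered whether or not it carried a hashtag. The rule found 599 of 19546 kept cells. Experiment 1 held 41 of 9332 (0.439%, exact 95% interval 0.315 to 0.596%) and experiment 2 held 558 of 10214 (5.46%, 5.03 to 5.92%). The counts of these 6 genes chose the cells, so their levels and every ratio against the other cells are a description with no test.

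OP9 is a bone-marrow stromal line from mouse calvaria, used as a feeder layer because it supports the growth of blood progenitors. OP9-Dll1 is a derivative that carries an added Delta-like 1, a membrane ligand that turns on Notch receptors in progenitors and so drives them into the T lineage. Stromal cells of the marrow also supply Kit ligand (Kitl), which keeps progenitors alive, the chemokine Cxcl12, which holds them in place, and interleukin 7 (Il7), a survival factor for lymphoid cells. The line comes from op/op mice, in which a mutation in Csf1 removes working macrophage colony-stimulating factor.

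The cultured cells were bone-marrow progenitors of Bcl2 transgenic mice, or of mice that also carry Cas9, grown on OP9-Dll1 with IL-7 and Flt3-ligand at 10 ng/ml each. On day 2 they received a Runx1 retrovirus marked by mCherry or its empty vector (harvest on days 4 and 6), or guides against Runx1 and Runx3 marked by human NGFR and mTurquoise or control guides (harvest on days 5 and 8, with 3 pairs of guides per gene). Live, lineage-negative, CD45-positive, vector-marked cells were sorted, stained with hashtag antibodies and pooled. Experiment 1 spanned 4 to 5 days of culture and experiment 2 spanned 4 to 8 days. Each experiment gave 1 mRNA library and 1 hashtag library with 8 hashtags, and the files used here do not tie a hashtag to a vector or a day. The stromal-like cells shared the vessel, medium and sort of the progenitors. No replicate library exists for either experiment, so differences are given with counting intervals and no p-value. Library, culture time and the mix of cultures cannot be told apart between the experiments.

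Few cells lay near the threshold. All 6 markers passed in 38 of the 41 cells of experiment 1 and in 535 of the 558 of experiment 2. Just outside the threshold, 8 and 37 kept cells had 1 to 3 markers at 5 UMIs, and 20 of those 37 had under 7000 UMIs in total. In experiment 2 the 6 cells with exactly 4 markers had a median of 1937 counts per 1000000 UMIs (CPM) summed over the 6 genes. The 8 cells with exactly 3 markers had a median of 7707 CPM at a median depth of 5189.5 UMIs, and the 535 cells with all 6 had a median of 10144 CPM. Between the libraries 39 barcode sequences were shared, of which 3 were stromal-like in experiment 2 and 0 in experiment 1.

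Stromal-like cells were deep, but the rule asks for raw UMIs and so favours deep barcodes. The depths describe the chosen cells only. Their median was 34773 UMIs and 6070 genes per cell in experiment 1, against 25239 UMIs and 4779 genes in the other kept cells. In experiment 2 the medians were 37994 UMIs and 6162 genes, against 26324 UMIs and 4539 genes. They held 0.640% and 8.46% of all UMIs of kept cells. Their median mitochondrial share was 6.05% and 4.79%, against 4.59% and 3.70% in the other cells.

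Blood-cell transcripts divided the stromal-like cells before any other comparison. Summed over 10 genes of the blood-cell surface and cytoskeleton (Ptprc, which encodes the sorted antigen CD45, and Cd52, Cd53, Coro1a, Laptm5, Rac2, Lcp1, Arhgdib, Tyrobp and Spn), 25 of 41 cells (61.0%) and 314 of 558 cells (56.3%) had under 200 CPM. These are called blood-low cells here. At 800 CPM or more, the blood-high cells, there were 15 (36.6%) and 212 (38.0%), and only 1 and 32 cells lay between. Among the other kept cells the median was 3512 and 3726 CPM, with the first percentile at 1790 and 1502 CPM. Both limits were set after the data were seen, and they mark ranges of a summed level, not cell types.

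**Figure D1:**
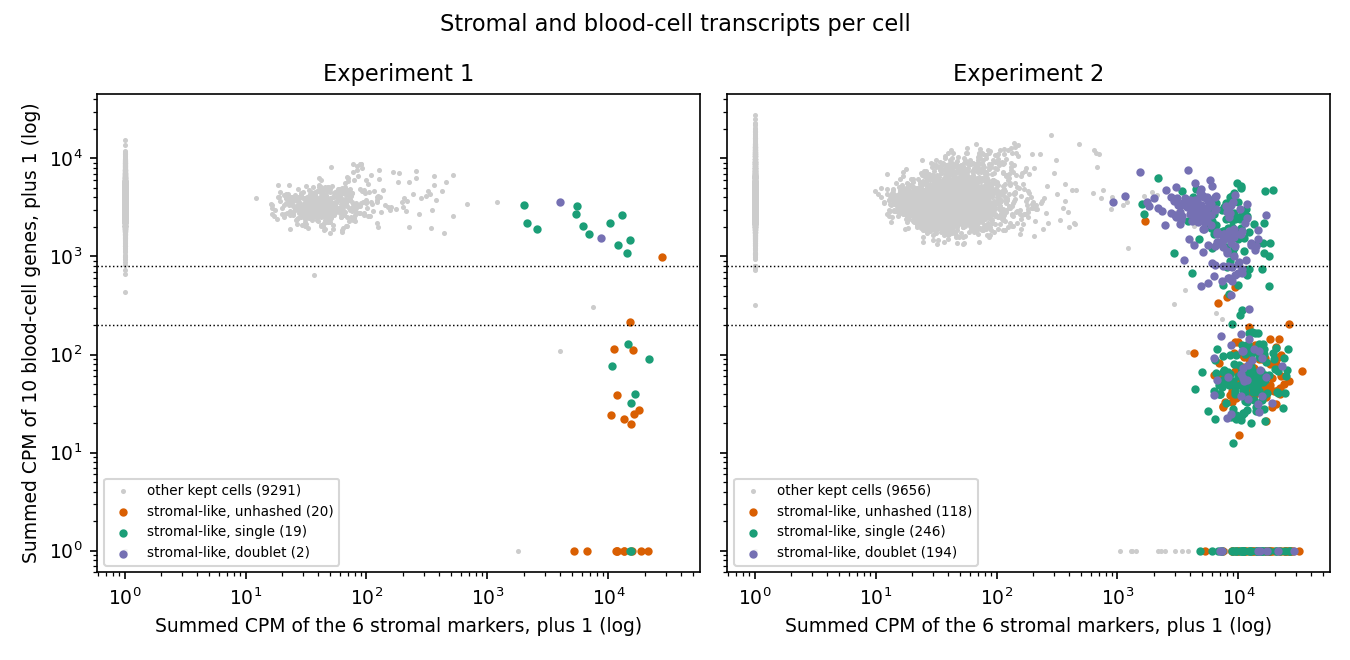
Each point is 1 kept cell, with the summed CPM of the 6 stromal markers on the horizontal axis and that of the 10 blood-cell genes on the vertical axis, both plus 1 and logarithmic, and with stromal-like cells coloured by hashtag call. Dotted lines mark 200 and 800 CPM; stromal-like cells form a cloud under the lower line and a second one above the upper line that reaches the level of the other cells.

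The 2 ranges differed in depth and in Xist, which did not enter the sum. The median depth was 30451 and 27210 UMIs in blood-low cells and 47193 and 54198 UMIs in blood-high cells. The median of the blood-low cells added to that of the other cells came to 55690 and 53534 UMIs. Ptprc is among the 10 summed genes, so its difference between the ranges follows from the limits. A UMI of it was seen in 4% and 7.01% of blood-low cells, in 86.7% and 97.2% of blood-high cells, and in 95.5% and 93.0% of the other cells. Xist, the long RNA made from the inactive X chromosome, was seen in 4% and 12.7% of blood-low cells, in 100% and 98.6% of blood-high cells and in 99.3% and 97.4% of the other cells. Thinned to 3000 UMIs per cell, Xist was seen in 0 of 25 and 3 of 313 blood-low cells, against 94.7% and 86.3% of the other cells. Its summed level in experiment 2 was 4.50 CPM in blood-low cells, 446.7 CPM in blood-high cells and 767.0 CPM in the other cells. The 4 Y-linked genes Ddx3y, Eif2s3y, Kdm5d and Uty gave 12 UMIs in 4 blood-low cells of experiment 1 and 31 UMIs in 9 of experiment 2. In blood-high cells they gave 0 UMIs in experiment 1 and 20 UMIs in 9 cells in experiment 2, in the cells between the limits 0 UMIs and 8 UMIs in 4 cells, and in all other kept cells 1 and 2 UMIs. Droplets holding a stromal and a blood cell, and blood RNA taken up by or stuck to stromal cells, were not tested as sources of the blood-high range. Values are for all stromal-like cells unless blood-low cells are named, and both are given for the genes on which the comparison depends most. Low levels of any blood-cell gene in blood-low cells follow in part from the limit that chose them.

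**Figure D2:**
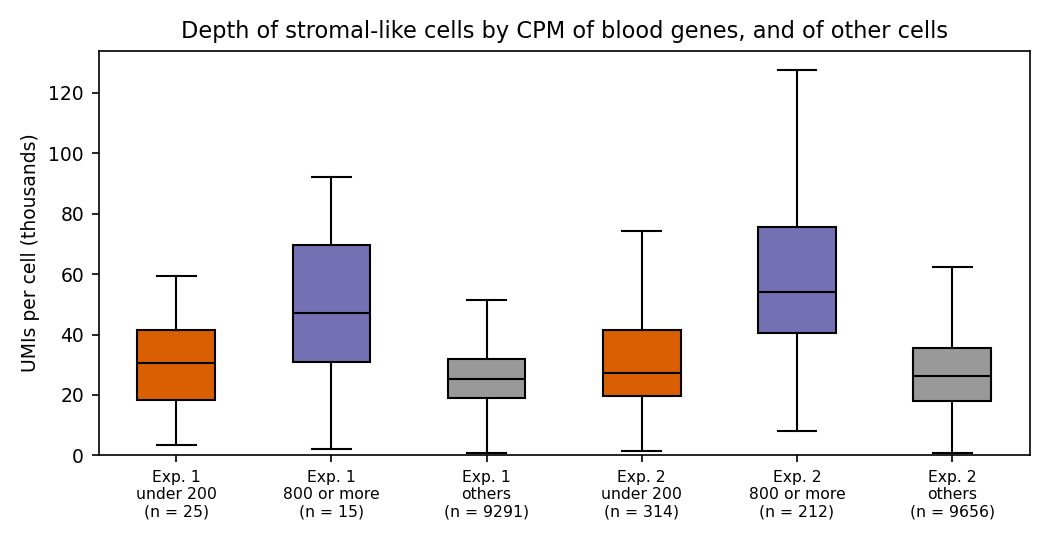
Boxes give the quartiles and the median of UMIs per cell (axis in units of 1000) for blood-low cells (under 200 CPM), blood-high cells (800 CPM or more) and other kept cells of each experiment, with whiskers to 1.5 times the box and points beyond them left out. Blood-high cells lie highest in both experiments, with medians of 47193 and 54198 UMIs.

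Blood-low cells carried few hashtag counts, and blood-high cells did not. In experiment 1, 19 carried a single hashtag, 2 were called doublets and 20 were unhashed, so that stromal-like cells made up 20 of the 35 unhashed cells (57.1%). In experiment 2, 246 were single, 194 doublets and 118 unhashed, the last being 40.5% of the 291 unhashed cells. Unhashed stromal-like cells were nearly all blood-low (18 of 20 and 113 of 118), whereas 141 of the 194 doublets of experiment 2 were blood-high. The median hashtag count per cell in experiment 2 was 67.5 in blood-low cells, 472.5 in blood-high cells and 271 in the other cells, and in experiment 1 it was 32, 1580 and 1282. Kitl followed the same division within experiment 2, at 339.2 CPM in unhashed, 222.7 CPM in single and 147.6 CPM in doublet stromal-like cells, while Ptprc went from 2.74 to 45.9 and 109.4 CPM.

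Among cells with a single hashtag, every hashtag of experiment 2 contained stromal-like cells. Their share ran from 0.984% (10 of 1016 cells, hashtag 7) to 7.11% (71 of 998, hashtag 2), with a median of 2.76% over the 8 hashtags. Hashtag 2 was high through blood-low cells, which were 58 of its 71 stromal-like cells. Hashtag 6 (51 of 976, 5.23%) was high through blood-high cells, which were 30 of its 51. In experiment 1 the same 8 sequences held 0 to 5 stromal-like cells each, with a highest share of 0.580% and a median of 0.216%. For hashtag 1 of experiment 1, 0 of 1263 cells allowed a share of up to 0.292% by the exact interval. Hashtag numbers follow the order of the deposited columns and link no culture across the experiments.

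**Figure D3:**
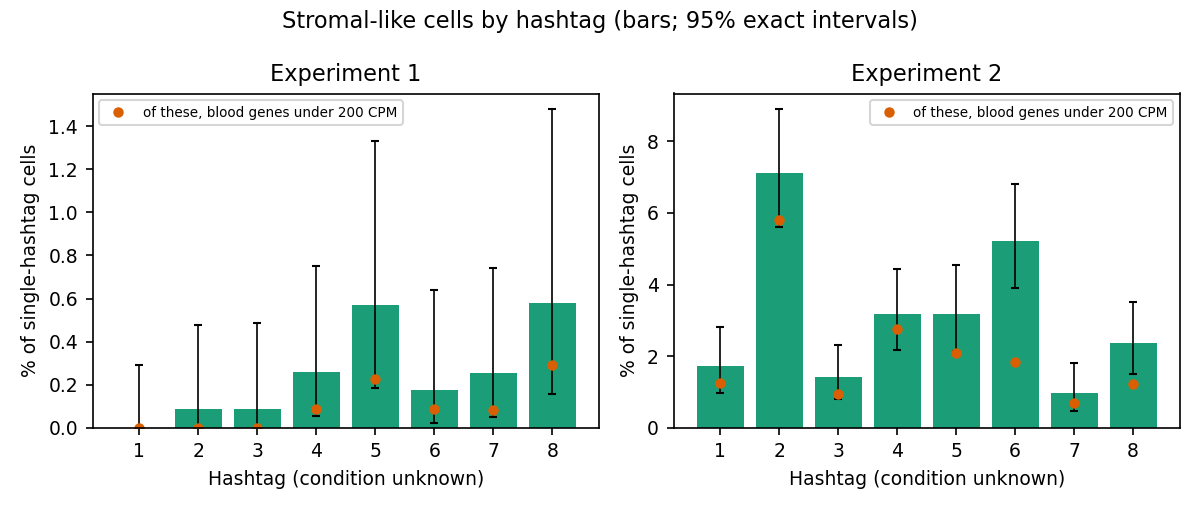
Bars show stromal-like cells as a percentage of the single-hashtag cells of each of the 8 hashtags, with exact 95% intervals, and points show the blood-low part, on separate vertical scales for the experiments. In experiment 2 hashtag 2 stands at 7.11% and hashtag 6 at 5.23%, and the points show that their blood-low parts were 5.81% and 1.84%.

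Against all other kept cells, many genes were far higher in stromal-like cells. UMIs were summed over each group and expressed as CPM, and a gene entered with at least 50 UMIs over all kept cells of its library. At least 4-fold higher were 1535 of 13076 genes in experiment 1 (11.7%) and 2163 of 13990 in experiment 2 (15.5%), and 1338 of 12979 in both (10.3%). At least 4-fold lower were 322 (2.46%) and 637 (4.55%), and 101 in both (0.778%). In blood-low cells alone the higher genes numbered 1813 and 2464 (13.9% and 17.6%) and the lower ones 894 and 1814 (6.84% and 13%), with 1546 (11.9%) higher and 661 (5.09%) lower in both experiments. The median ratio over all genes tested was 1.02 and 1.04. A gene that is nearly silent in blood cells reached 50 UMIs only through the stromal-like cells, so the counts over lists given next describe the lists and do not show that they stand apart.

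The 20 genes with the largest ratio outside the rule, by the smaller ratio of the 2 experiments, were Meis2, Nid1, Nfib, Adamts5, Ogn, Bicc1, Gas1, Serpinh1, Kitl, Prrx1, Rarres2, Lox, Fstl1, Cald1, Fgf7, Mgp, Prelp, Cyp1b1, Snai2 and Dpysl3. Meis2, a homeobox factor, led with 252.6 and 239.5 CPM in stromal-like cells of the 2 experiments against 0.0576 and 0.196 CPM in the other cells. Serpinh1, the collagen chaperone of the endoplasmic reticulum, stood at 700.2 and 634.5 CPM against 0.128 and 0.769 CPM. Ogn and Prelp, small leucine-rich proteoglycans of the matrix, stood at 502.6 and 582.0 CPM and at 161.8 and 224.4 CPM. Gas1, a membrane protein that binds Hedgehog ligands, stood at 537.8 and 528.1 CPM, and Cyp1b1, a cytochrome P450, at 408.0 and 355.6 CPM. For each of the 20, blood-high cells had a lower level than blood-low cells in both experiments, for example 151.2 and 163.7 CPM of Meis2 against 348.2 and 325.9 CPM.

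Most genes of the matrix list were higher in stromal-like cells. Of the 25 genes on the matrix list, 21 were tested in experiment 1 and 20 were at least 4-fold higher, and 23 of 24 in experiment 2; their median ratio was 3983 and 495. The counts in blood-low cells were the same. Over all genes tested, 11.7% and 15.5% were that much higher, and 13.9% and 17.6% in blood-low cells. Fn1, the fibronectin that cells attach to, stood at 1430 CPM in experiment 1 and 1240 CPM in experiment 2, against 0.354 and 2.09 CPM in the other cells. Collagen VI chains, which form beaded filaments around cells, followed with Col6a1 at 1536 and 1269 CPM and Col6a2 at 1033 and 1077 CPM. Basement-membrane collagen Col4a1 was at 354.9 and 250.4 CPM and the fibril collagen Col5a2 at 439.9 and 374.4 CPM. Decorin (Dcn) and lumican (Lum), small proteoglycans typical of many fibroblasts, were scarce, with Dcn at 0 and 1.68 CPM and Lum at 2.56 and 6.00 CPM. Igfbp4, a carrier of insulin-like growth factors, was the exception among tested matrix genes, because the other cells also had 478.5 and 404.5 CPM against 765.4 and 851.8 CPM.

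Enzymes that build and trim matrix were high as well. Of 19 listed, 15 of 16 tested in experiment 1 and 16 of 17 in experiment 2 were at least 4-fold higher, with the same counts in blood-low cells. All genes tested gave 11.7% and 15.5%, and 13.9% and 17.6% in blood-low cells. Lox, which cross-links collagen, stood at 673.3 and 439.2 CPM, Pcolce, which helps trim procollagen, at 410.5 and 254.6 CPM, and the gelatinase Mmp2 at 213.6 and 208.7 CPM with its inhibitor Timp2 at 588.9 and 543.8 CPM. Loxl2 was the tested enzyme that did not follow, at 1.28 and 1.80 CPM against 3.22 and 2.92 CPM. Mmp3, the stromelysin of inflamed fibroblasts, had 0 UMIs in stromal-like cells of both experiments.

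Contractile and cytoskeletal genes were also high. Of 18 listed, 13 of the 16 tested were at least 4-fold higher in each experiment, and 14 and 15 in blood-low cells. For all genes tested the shares were 11.7% and 15.5%, and 13.9% and 17.6% in blood-low cells. Acta2, smooth-muscle actin, stood at 731.5 and 524.5 CPM against 0.132 and 1.37 CPM, and varied widely between cells. In blood-low cells of experiment 2 its median was 317.3 CPM and its highest value 9768 CPM, and the top 10% of cells held 49.1% of its UMIs. Cald1 (caldesmon) was at 684.8 and 724.7 CPM, and Vim, the intermediate filament of mesenchymal cells, at 3276 and 2998 CPM against 341.4 and 485.6 CPM. Calponin 1 (Cnn1), a marker of mature smooth muscle, had 0 and 2 UMIs.

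Of the Notch ligands, Jag1 was the one with a substantial level. Jagged 1 is a membrane ligand of the same receptors as the Delta-like proteins. It stood at 81.8 CPM (95% Poisson interval 68.3 to 97.3) in stromal-like cells of experiment 1 and at 61.4 CPM (58.4 to 64.6) in experiment 2. In blood-low cells the level was 115.2 and 85.8 CPM, and in the other cells 0.288 and 0.443 CPM. A UMI of Jag1 was seen in 88% and 82.2% of blood-low cells, and at 3000 UMIs per cell in 40% and 21.4%, against 0.164% and 0.189% of the other cells. What the Jag1 share in the other cells comes from was not tested.

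Dll1 itself was barely counted. Stromal-like cells had 5 UMIs in experiment 1 (3.20 CPM, 1.04 to 7.46) and 70 UMIs in experiment 2 (2.80 CPM, 2.18 to 3.54), against 0.0947 and 0.0517 CPM in the other cells. In blood-low cells of experiment 2, 34 of 314 (10.8%) had a Dll1 UMI and none had more than 2. At 3000 UMIs per cell it was 2 of 313 (0.639%), against 0.0316% of the other cells. The libraries count the 3′ end of transcripts, and whether the construct that gives OP9-Dll1 its ligand keeps the counted end of the mouse gene is not given in the sources used here, so the Dll1 count checks nothing about the added ligand. Dll3 and Dll4 had 0 UMIs in stromal-like cells, and Dlk2 had 2 and 14. Jag2 stood at 1.28 and 1.16 CPM. Its ratio to the other cells was 0.609 (0.0736 to 2.21) and 1.22 (0.799 to 1.79), and both counting intervals included 1. Mib1, the ubiquitin ligase that makes ligands active in the sending cell, was at 39.6 and 28.5 CPM against 26.7 and 13.8 CPM. Over the 8 listed genes, 1 of 4 tested in experiment 1 (Jag1) and 2 of 5 in experiment 2 (Jag1 and Dll1) passed 4-fold. Of all genes tested, 11.7% and 15.5% did, and with so few genes the counts say little about the list.

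Notch receptors and target genes were counted in the stroma as well. Notch3, the receptor best known from pericytes and smooth muscle, stood at 71.6 and 43.0 CPM in stromal-like cells against 1.84 and 2.11 CPM. Notch1, which receives the signal in T progenitors, was at 65.1 and 42.2 CPM in blood-low cells against 83.2 and 51.5 CPM in the other cells, a difference of less than 2-fold. Notch2 was at 23.7 and 20.8 CPM against 13.7 and 8.72 CPM. The target genes differed among themselves. Hes1 was present in blood-low cells at 61.4 and 37.3 CPM and Hey1 at 7.51 and 3.64 CPM, against 68.3 and 67.5 CPM of Hes1 and 0.222 and 0.126 CPM of Hey1 in the other cells. Nrarp and Dtx1, targets used to read Notch activity in T progenitors, had 0 UMIs each in blood-low cells of experiment 1. In experiment 2 they were at 0.671 and 0.0958 CPM in blood-low cells, against 19.3 and 25.5 CPM in the other cells.

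Kitl was among the highest of the listed cytokines and growth factors in level, under Spp1 in both experiments, Gas6 in experiment 1 and Ptn in experiment 2. Kitl stood at 202.7 CPM (181.0 to 226.3) in experiment 1 and 197.9 CPM (192.4 to 203.4) in experiment 2, and at 271.8 and 269.4 CPM in blood-low cells, against 0.0535 and 0.259 CPM in the other cells. Over all stromal-like cells, experiment 2 had 0.976 times the level of experiment 1, with a counting interval (0.871 to 1.10) that included 1. A Kitl UMI was seen in 92% and 93.0% of blood-low cells, with a median of 224.7 and 238.9 CPM per cell. Its receptor Kit, which marks early progenitors, was at 0 and 0.479 CPM in blood-low cells against 68.8 and 36.5 CPM in the other cells. Cxcl12, a rule gene, stood at 2487 and 2088 CPM, and its receptor Cxcr4 at 0 and 0.383 CPM in blood-low cells against 32.7 and 23.4 CPM. The low Kit and Cxcr4 of blood-low cells follow in part from the limit that chose those cells.

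The regions directly upstream of the annotated starts of 4 genes named above are printed, and whether their letters bear on the levels was not tested. They come from RefSeq for build GRCm38.p6, 150 bases each, 5′ to 3′ on the strand of the gene: Kitl at chr10:100015671-100015820 (plus strand), Jag1 at chr2:137116521-137116670 (minus), Cxcl12 at chr6:117168385-117168534 (plus) and Col1a2 at chr6:4505468-4505617 (plus). Capitals mark TATAAA and CCAAT, searched on both strands.
Kitl: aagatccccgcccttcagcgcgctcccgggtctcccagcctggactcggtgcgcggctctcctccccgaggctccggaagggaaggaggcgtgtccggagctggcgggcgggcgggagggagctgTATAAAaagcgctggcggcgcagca
Jag1: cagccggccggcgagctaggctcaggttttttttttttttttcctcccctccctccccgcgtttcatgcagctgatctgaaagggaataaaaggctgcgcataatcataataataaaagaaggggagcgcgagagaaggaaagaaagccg
Cxcl12: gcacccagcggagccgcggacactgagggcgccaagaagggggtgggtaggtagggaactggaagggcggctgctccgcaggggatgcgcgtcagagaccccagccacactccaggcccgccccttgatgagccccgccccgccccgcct
Col1a2: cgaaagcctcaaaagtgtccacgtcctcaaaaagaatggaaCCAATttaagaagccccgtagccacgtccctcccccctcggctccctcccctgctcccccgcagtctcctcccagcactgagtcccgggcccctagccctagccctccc
Kitl holds TATAAA 25 bases before its start, and Col1a2 holds CCAAT 109 bases before its start. TATAAA occurs in 7.57% and CCAAT in 24.5% of all 32851 promoter windows of that length. Of the 20 genes with the largest ratio, 12 were in the table with 13 windows, of which 1 held TATAAA and 5 held CCAAT. The matches describe letters only.

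Transcripts of the cytokines added to the medium were low in the stroma. Il7 stood at 3.20 and 3.96 CPM (5 and 99 UMIs) against 0.654 and 0.351 CPM in the other cells. In experiment 1 its ratio of 4.89 (1.56 to 11.6) was under 4-fold in blood-low cells (3.83) and under 3 other settings. Flt3l was at 10.2 and 7.52 CPM against 5.91 and 4.90 CPM, and its ratio of 1.73 in experiment 1 had an interval of 0.987 to 2.82. Their receptors on progenitors, Il7r and Flt3, had 0 UMIs in blood-low cells of experiment 1 and 0.0958 CPM each in experiment 2. Those low counts follow in part from the limit that chose the blood-low cells.

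Other growth factors of mesenchymal cells were plentiful. Of 34 listed cytokines and growth factors, 12 of 21 tested in experiment 1 and 17 of 27 in experiment 2 were at least 4-fold higher. Their median ratio was 44.3 and 22.7, and 11.7% and 15.5% of all genes tested were at least 4-fold higher. Csf1 was at 125.3 and 105.6 CPM against 1.16 and 1.74 CPM; the counts do not show whether the transcript encodes a working protein. Gas6, a ligand of the TAM receptors, was at 242.3 and 166.3 CPM, Fgf7, which acts on epithelium, at 122.1 and 114.0 CPM, Bmp4 at 76.1 and 110.2 CPM and Hgf at 52.4 and 56.1 CPM. Spp1 (osteopontin) was at 1564 and 709.6 CPM. Tgfb2 and Tgfb1 parted: Tgfb2 was at 54.4 and 98.6 CPM against 0.177 and 0.499 CPM, whereas Tgfb1 in blood-low cells was at 38.8 and 27.9 CPM (91.4 and 90.8 CPM in all stromal-like cells) against 231.3 and 210.6 CPM. Angpt1 was at 101.7 and 86.7 CPM in all stromal-like cells, blood-high ones included, against 87.1 and 48.9 CPM. Csf2, Csf3 and Grem1 had 0 UMIs in stromal-like cells of both experiments, and Thpo had 0 and 4.

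**Figure D4:**
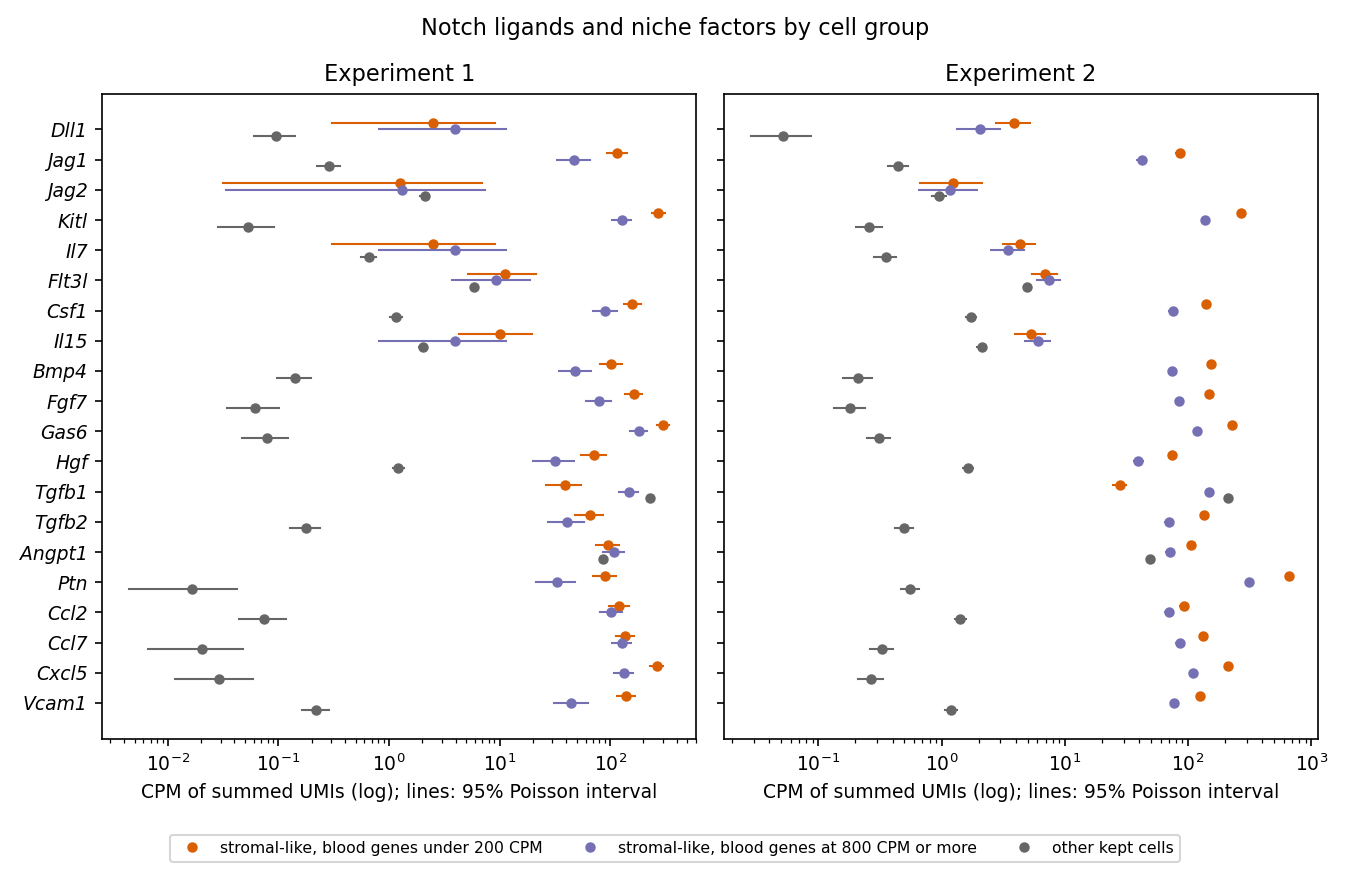
CPM of summed UMIs (logarithmic axis) for 20 ligand, cytokine, chemokine and adhesion genes in blood-low cells, blood-high cells and other kept cells of each experiment, with lines for the exact 95% Poisson interval. Kitl and Jag1 are highest in blood-low cells and lowest in the other cells, Dll1 and Il7 stay under 5 CPM in every group, and Tgfb1 runs the other way.

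Several chemokines that draw myeloid cells were high. Besides Cxcl12, Cxcl5 and Cxcl1, which act on neutrophils, stood at 202.1 and 160.3 CPM and at 56.3 and 43.8 CPM, and Ccl2 and Ccl7, which act on monocytes, at 111.9 and 85.6 CPM and at 132.4 and 107.2 CPM. Of 13 listed, 6 of 9 tested in experiment 1 and 6 of 10 in experiment 2 were at least 4-fold higher. The share over all genes was 11.7% and 15.5%. Ccl25, a thymic chemokine for T progenitors, was at 15.3 and 12.7 CPM against 13.2 and 10.6 CPM. Ccl19 and Ccl21a, the Ccr7 ligands of lymphoid-organ stroma, and Cxcl14 had 0 UMIs in stromal-like cells. Ccl5 in experiment 2 was at 16.2 CPM in blood-low and 112.1 CPM in blood-high cells, against 34.5 CPM in the other cells. Vcam1, the adhesion molecule that holds progenitors through the integrin Itga4, was at 93.4 and 99.3 CPM in stromal-like cells. Itga4 was at 0 and 1.63 CPM in blood-low cells against 237.3 and 141.2 CPM in the other cells, which follows in part from the limit that chose blood-low cells.

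The platelet-derived growth factor receptors that mark mesenchyme were high, with Pdgfrb at 379.8 and 361.1 CPM and Pdgfra at 87.0 and 75.0 CPM. Of the 11 listed receptors for niche factors these 2 were at least 4-fold higher in each experiment. Among all genes tested, 11.7% and 15.5% were, so the count says little about the list. All 8 blood-cell receptors of that list (Kit, Flt3, Il7r, Il2rg, Cxcr4, Csf1r, Ccr9 and Ccr7) had 0 UMIs in blood-low cells of experiment 1 and under 1 CPM in those of experiment 2. That scarcity follows in part from the limit that chose the blood-low cells. In all stromal-like cells, 2 of the 11 were at least 4-fold lower in experiment 1 and 1 in experiment 2. Over all genes tested, 2.46% and 4.55% were.

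The Runx genes targeted in the progenitors were also counted in the stroma. Runx1 stood at 131.5 CPM (107.5 to 159.2) and 151.5 CPM (144.1 to 159.2) in blood-low cells, above the 95.9 and 65.7 CPM of the other cells, at ratios of 1.37 (1.12 to 1.66) and 2.31 (2.19 to 2.43). Those other cells mix all vectors and hashtags, and the counts do not separate vector from endogenous Runx1. At 3000 UMIs per cell a Runx1 UMI was seen in 32% and 40.3% of blood-low cells against 24.6% and 16.9%. Runx2, the osteoblast factor, was at 70.1 and 63.8 CPM against 24.7 and 18.8 CPM. In all stromal-like cells Runx1 was at 140.7 and 136.9 CPM. Runx3 was at 3.76 and 5.46 CPM in blood-low cells against 149.5 and 123.4 CPM. Cbfb, their shared partner, was at 60.1 and 46.7 CPM against 64.8 and 39.5 CPM.

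Transcription factors of mesenchyme accompanied these. Of 18 listed progenitor markers and factors, 9 of 13 tested in experiment 1 and 12 of 17 in experiment 2 were at least 4-fold higher. Among all genes tested, 11.7% and 15.5% were. Prrx1, a limb and skull mesenchyme factor, was at 665.6 and 501.3 CPM, Snai2 at 283.3 and 292.7 CPM, Foxc1, a factor of the marrow niche, at 200.8 and 168.5 CPM and Ebf3 at 72.9 and 70.1 CPM. The surface markers often used for cultured mesenchymal progenitors were scarce: Thy1 was at 1.25 and 0.862 CPM in blood-low cells and 12.8 and 17.8 CPM in all stromal-like cells, against 82.0 and 88.8 CPM in the other cells, Nt5e at 0 and 0.0958 CPM and Eng at 6.26 and 4.98 CPM. Tcf21 had 0 UMIs.

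Adipogenic genes were partly on. OP9 cells are known to form fat readily. Fabp4, a fatty-acid carrier, stood at 851.1 and 634.2 CPM, the lipase Lpl at 335.7 and 327.6 CPM, and Pparg and Zfp423, factors of preadipocytes, at 60.1 and 43.3 CPM and at 19.8 and 22.8 CPM. Plin1, which coats large fat droplets, and Lepr, the receptor that marks niche stroma in adult marrow, had 0 UMIs in both experiments, and Cfd (adipsin) had 0 and 1. Of the 16 listed, 5 of 10 tested in experiment 1 and 6 of 13 in experiment 2 were at least 4-fold higher. The share over all genes was 11.7% and 15.5%. Adipoq, the hormone of mature adipocytes, was uneven: it was at 2.50 CPM (2 UMIs) in blood-low cells of experiment 1 and 27.2 CPM in those of experiment 2, where 90 of 314 cells (28.7%) had a UMI and the top 10% of cells held 72.9% of its UMIs. In bone and cartilage genes, Sox9 (76.7 and 119.5 CPM) and Alpl (43.5 and 52.5 CPM) were high, and the mature markers Sost, Acan and Mepe had 0 UMIs.

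No gene here tells OP9 from another stromal cell. Markers of other lineages are given for blood-low and all stromal-like cells, and low blood-lineage sums in blood-low cells follow in part from the limit that chose them. Of 8 endothelial genes, Tek, Emcn, Cldn5 and Tie1 had 0 UMIs in stromal-like cells, Cdh5 had 0 and 1, and the summed level was 42.8 and 38.6 CPM in all and 1.25 and 2.49 CPM in blood-low cells against 129.8 and 134.3 CPM in the other cells. Of 8 macrophage genes, Adgre1, Mrc1 and Cd163 had 0 UMIs in blood-low cells; Vcam1 and Mertk, which stroma also expresses, supplied most of the 147.8 and 130.9 CPM summed there. Of the B-lineage genes, Ebf1 was high, at 354.9 and 333.7 CPM, and Pax5 had 0 UMIs in blood-low cells. Early T genes summed to 216.8 and 237.0 CPM in all stromal-like cells, 10.0 and 15.5 CPM in blood-low cells, 435.1 and 414.1 CPM in blood-high cells and 970.0 and 975.4 CPM in the other cells. Granulocyte or monocyte genes summed to 90.2 and 1018 CPM in all and 12.5 and 50.1 CPM in blood-low cells against 680.4 and 4811 CPM. Mast or basophil genes summed to 20.5 and 49.1 CPM in all and 3.76 and 5.56 CPM in blood-low cells against 230.1 and 301.9 CPM. The erythroid list, mostly Hbb-bt, summed to 549.3 and 394.6 CPM in all and 13.8 and 12.4 CPM in blood-low cells against 1664 and 1303 CPM. The dendritic list summed to 2382 and 2241 CPM in blood-low cells against 845.9 and 1843 CPM. Cst3 (1425 and 1546 CPM) and Bst2 (581.1 and 488.2 CPM), both widely expressed, made up most of it, and Siglech had 0 and 0.0958 CPM.

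Of 10 interferon-induced genes tested, Ifit1, Ifit3 and Isg15 were at least 4-fold higher in each experiment and the other 7 were not. Among all genes tested, 11.7% and 15.5% were. The median ratio over the 10 interferon-induced genes was 2.25 and 1.88. Ifit1 stood at 145.2 and 153.5 CPM against 2.40 and 2.65 CPM, Ifit3 at 92.7 and 111.2 CPM against 0.510 and 1.44 CPM and Isg15 at 332.5 and 387.5 CPM against 64.6 and 69.2 CPM. Of the class I genes, H2-K1 was lower in stromal-like cells, at 657.3 and 688.2 CPM against 910.1 and 874.5 CPM, and H2-D1 was at 825.5 and 721.8 CPM against 693.3 and 640.9 CPM. Of 11 early-response and stress genes, Egr1, Hspa1b and Ddit3 passed 4-fold in both experiments, as did 10.3% of all genes tested.

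Fewer blood-low cells than other cells had high levels of division genes, but in experiment 1 the summed levels were not uniformly lower. The proliferation list also holds the cell-cycle inhibitors Cdkn1a, Cdkn2a and Cdkn1c, so its counts are not of division genes alone. From it, 0 of 16 tested genes in experiment 1 and 0 of 17 in experiment 2 were at least 4-fold lower in all stromal-like cells. In blood-low cells 4 and 8 were. Of all genes tested, 2.46% and 4.55% were that much lower in all stromal-like cells, and 6.84% and 13% in blood-low cells. Summed over 6 G2 and mitosis genes, 28% of blood-low cells of experiment 1 and 10.5% of experiment 2 exceeded 500 CPM, against 77.4% and 72.9% of the other cells. In experiment 1 the 90th percentile of that sum was higher in blood-low cells, at 3529 CPM against 2661 CPM. Cenpf there was at 281.8 CPM in blood-low cells against 113.6 CPM, and Cenpe at 103.9 against 104.5 CPM. Mki67 in blood-low cells was at 207.9 CPM in experiment 1 and 56.0 CPM in experiment 2 (171.4 and 97.8 CPM in all stromal-like cells), against 255.4 and 197.1 CPM. Top2a was at 410.8 and 86.3 CPM there (363.2 and 179.8 CPM in all) against 546.3 and 429.3 CPM. In experiment 2 the top 10% of blood-low cells held 91.5% of Top2a UMIs. Cyclin D1 (Ccnd1) was higher in stroma, at 167.5 and 131.8 CPM against 32.3 and 33.9 CPM, and cyclin D3 (Ccnd3), the lymphoid form, was lower, at 17.5 and 18.9 CPM in blood-low cells against 158.3 and 170.3 CPM.

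The 10 genes with the lowest ratio were Gzmb, Ctsg, Tcrg-C2, Cpa3, Akr1c13, Lck, Trbc1, Gzma, Prtn3 and Tcrg-C1. They encode granzymes, granule proteases, T-cell receptor chains and the T-cell kinase Lck. Gzma stood at 250.7 and 137.0 CPM in all stromal-like cells, at 7.51 and 11.3 CPM in blood-low cells and at 1239 and 1175 CPM in the other cells. Each of the 10 was lower in blood-low than in blood-high cells in both experiments.

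Between the experiments, stromal-like cells were alike in most genes. Of 11451 genes with at least 50 UMIs in stromal-like cells of both experiments together, 420 (3.67%) had at least 2 times the level in experiment 2 that they had in experiment 1, and 305 (2.66%) at most 0.5 times. The corresponding counts in blood-low cells were 334 (3.43%) and 437 (4.49%) of 9734. The median ratio of all genes was 0.923, and TMM scaling would shift log2 ratios by 0.12. No rule marker and no Notch ligand among those tested passed 2-fold, and Jag1 had a ratio of 0.750 (0.626 to 0.906).

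Ptn, pleiotrophin, a heparin-binding growth factor of marrow stroma, had the largest ratio among the 10 genes named as higher in experiment 2. From 62.0 CPM in experiment 1 it went to 464.8 CPM in experiment 2, which is 7.49 times as much (6.14 to 9.25). Blood-low cells alone stood at 90.2 and 663.6 CPM. A Ptn UMI was seen in 32% and 70.4% of blood-low cells. Per cell it was uneven in experiment 2, where the median was 183.3 CPM, the highest value 10009 CPM and the top 10% of cells held 52.6% of the UMIs. Matrix Gla protein (Mgp), an inhibitor of calcification, went the other way, from 687.4 to 126.9 CPM (ratio 0.185, 0.172 to 0.198). Thrombospondin 1 (Thbs1) went from 278.8 to 92.0 CPM and Spp1 from 1564 to 709.6 CPM. Tgfb2 in blood-low cells was 65.1 and 134.1 CPM (ratio 2.06, 1.56 to 2.77).

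Phlda1, Il1rn, Errfi1 and Egr1 were lower in experiment 2, Egr1 at 324.2 and 138.6 CPM. The mitosis genes Cenpe and Cenpf were lower too. Of 16 tested genes of the proliferation list, which includes inhibitors, 2 were at least 2-fold lower in experiment 2 in all stromal-like cells (2.66% of all genes were). In blood-low cells, where experiment 1 rests on 25 cells, 8 were (4.49% of all genes). AY036118 and Gm42418, loci that overlap ribosomal RNA repeats and can collect its reads, were lower, AY036118 at 145.8 and 17.4 CPM, the lowest ratio of those named (0.119, 0.101 to 0.141), and Gm42418 at 4122 and 1214 CPM against 537.8 and 449.9 CPM in the other cells. Among genes higher in experiment 2, H2-Eb1, H2-Ab1, H2-Aa and Cd74, which make up and load MHC class II, were so in all stromal-like cells but not in blood-low cells. H2-Eb1 had a ratio of 7.05 in all stromal-like cells and 0.330 in blood-low cells, where it stood at 20.0 and 6.61 CPM. Cd52 likewise had a ratio of 3.03 in all and 1.02 in blood-low cells. Gm10076 and 1810022K09Rik had ratios of 3.15 and 2.17 in blood-low cells, against 3.17 and 2.11 in all. Hist1h2ap and Lsp1 had 1.42 and 1.20 there.

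**Figure D5:**
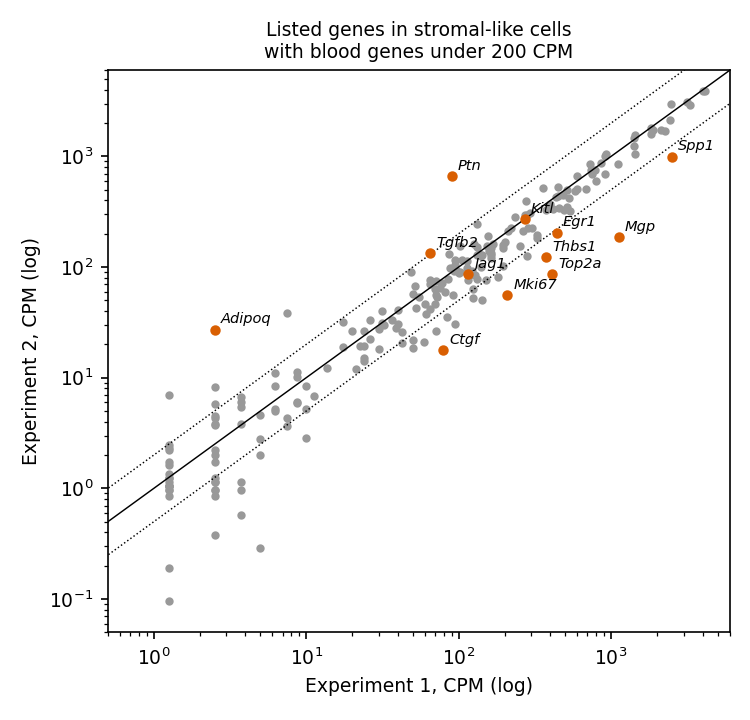
Each point is 1 of 221 listed genes with UMIs in blood-low cells of both experiments, plotted by its CPM in experiment 1 and in experiment 2 on logarithmic axes, with a solid line of equal level and dotted lines at 2-fold. Kitl and Jag1 lie near the solid line, Ptn lies above the upper dotted line, and Mgp, Top2a, Mki67 and Thbs1 lie under the lower one.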

How the data were processed

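The authors deposited raw UMI counts per gene and barcode for 2 10x Chromium v3 mRNA libraries and raw counts of 8 hashtags per barcode for the 2 matched hashtag libraries. Per the submitters' processing notes, Cell Ranger 3.0.0 was used with mm10 and GRCm38; whether hashtag counts are molecules or reads, and how barcodes were chosen, is not given in the sources used here. Of 31053 gene IDs, 30934 were in the gene name table.

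The cells and the 27 gene lists (311 genes) were chosen with earlier results of these data known. Hashtags were called by HTODemux (Seurat 5.3.0, quantile 0.99). UMIs were summed over cells and divided by their total (CPM), with exact Poisson, Clopper-Pearson and conditional 95% intervals that cover counting error only. Genes were compared at 50 or more UMIs over all kept cells, called at 4-fold (2-fold between experiments), and a sum of 0 stood at a floor of 3 counts over the group. Named outside the lists were the 20 genes with the largest and the 10 with the lowest ratio at 100 or more CPM in the higher group of both experiments, and the 10 most different each way between experiments at 100 or more CPM in the higher and 10 or more UMIs in the lower. The files held 9967 and 10556 barcodes, and kept stromal-like cells gave 1563896 and 24997911 UMIs. Alternatives covered cell filters, marker rules, hashtag states, thinning to 3000 UMIs per cell, scaling by TMM (edgeR 4.0.16) or DESeq2 1.42.0 size factors, and filters on low counts. The ratio code was tested on simulated counts. Doublets were kept and are reported by hashtag state. Promoter letters are RefSeq's.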

Additional observations from a re-analysis of the deposited data

Results flagged for a closer look

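The share of blood-low stromal-like cells among single-hashtag cells of experiment 2 was 5.81% in hashtag 2, which stood farther from the other 7 hashtags than the 95% limit of Dixon's test allows for 8 values. The share of all stromal-like cells, at 7.11% in hashtag 2 and 5.23% in hashtag 6, did not pass that limit. The highest and lowest values of 4 such sets were examined, and chance marks about 1 in 20 independent sets. These sets share cells, and the blood-low limit was set after the data were seen. What culture hashtag 2 marks is not given in the files used here.

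Among barcodes that failed the cell filter, 6 in experiment 1 and 18 in experiment 2 passed the marker rule, all of them excluded for mitochondrial UMIs at 10% or more. Their median mitochondrial share was 18.5% and 12.4%, and their median depth was 11315 and 11692 UMIs. Kitl stood at 292.5 and 305.2 CPM and Jag1 at 92.4 and 99.4 CPM in them, while Ptprc was at 0 and 49.7 CPM against 565.7 and 396.5 CPM in the rest of the excluded barcodes.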

How the results depend on the processing

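Depth limited experiment 1, where 41 cells gave 5 UMIs each of Dll1 and Il7. Under a stricter cell filter (1000 genes, mitochondrial share below 5%) the share of stromal-like cells was 0.150% and 3.48%, among single-hashtag cells 0.221% and 3.14%, and with doublets left out 4.49% in experiment 2. Genes at least 4-fold higher numbered 922 in experiment 1 at 200 or more UMIs, and 2623 and 3395 with no filter beyond 1 UMI. Genes at least 4-fold lower numbered 170 and 1113 in single-hashtag cells, 773 and 1225 by the mean of CPM over cells, and 894 and 1814 in blood-low cells (chosen after seeing the data, as were the limits of 100 and 400 CPM and a filter of 10 UMIs in the higher group). In experiment 2 they numbered 404 with that cell filter and 1363 without doublets.

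In experiment 2, HTODemux at quantile 0.95 called 39.4% single, 48.0% doublet and 12.5% unhashed, and a rule on the ratio of the top hashtags called 37.6%, 21.7% and 40.7%. At a limit of 100 CPM, 48.7% were blood-low. Between experiments, thinning gave 729 higher and 1367 lower genes and single-hashtag cells 996 lower, and blood-low cells had 767 lower over the same 11451 genes as all stromal-like cells. Over 45 genes and 1075 alternative ratios, 346 fell outside the counting interval of the main ratio, and 138 moved by over 1.5 times. None that was at least 4-fold either way crossed 1. Ratios far from 1 could hardly cross it, so that says little about stability. Smaller ratios were not checked for a change of direction. Il7 in experiment 1 lost 4-fold with all 6 markers (3.95), 10 UMIs of 4 markers (3.96), single hashtags (3.28) and in blood-low cells (3.83). No paired analysis was possible because each experiment is 1 library and hashtags carry no condition.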
